A study of Mus musculus with 6 samples.

Results

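Car3, the gene of carbonic anhydrase 3, and 9 other genes of fat cells were followed library by library in testis RNA from 3 mouse genotypes, as a possible sign of fat left on the dissected organ. Car3 was chosen from its counts, which were 0 in both libraries labelled P2KO. Adipoq, Fabp4, Plin1, Cfd, Lep, Retn, Cidec, Scd1 and Lpl were named as fat cell genes, with earlier results of these data known. These 10 genes were matched by symbol among the 55536 genes counted, and 6 of them had enough counts to be tested.

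Testes were taken from mice at 4 months of age, and poly(A)-selected RNA was sequenced with 2 biological replicates per genotype. All mice were on the FVB/NJ background, and WT is FVB/NJ itself. P2KO mice carry a gene trap in Padi2, in which LacZ and Neomycin coding sequence stands in place of part of exon 1. DKO mice carry the same trap and also a deletion of 4 nucleotides in exon 1 of Padi4, made by CRISPR/Cas9 in P2KO embryos. DKO is a single established line, so that effects of its genotype and of that line cannot be told apart. Beyond the number of replicates, the sources used here tie no replicate to a litter, cage or day.

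Counts on genes came to 21939393 in WT 1, 26081756 in WT 2, 27306679 in P2KO 1, 23072179 in P2KO 2, 26068171 in DKO 1 and 23366962 in DKO 2. The targeted genes were examined first as a check of the labels. Padi2 had 47 and 64 counts in WT, 100 and 55 in P2KO, and 59 and 83 in DKO. Padi4 had 20 and 43 counts in WT, 11 and 10 in P2KO, and 4 in each DKO library. Counts over the whole Padi2 gene were not lower in the mutants and do not check the P2KO label, so P2KO and DKO below mean the libraries labelled so.

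White fat cells store triglyceride in a single large droplet and release it on demand as fatty acids and glycerol. They also act as endocrine cells, and several of the hormones and enzymes that mark them are made in few other tissues. Carbonic anhydrases interconvert carbon dioxide and bicarbonate, and carbonic anhydrase 3 is a cytosolic form with low activity that is abundant in fat cells, slow skeletal muscle fibers and male rodent liver. A pad of white fat lies next to the epididymis and testis in the mouse. Within the testis, lipid droplets are a feature of Leydig and Sertoli cells, and many enzymes of lipid metabolism are made in germ cells.

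The 10 genes were all low, and their levels differed widely. In RPKM, which divides counts by exon length and by scaled library size, the mean over the 6 libraries was 4.92 for Adipoq, 3.99 for Scd1, 0.748 for Plin1 and 0.397 for Retn. The library ranges of these 4 did not overlap, so their order held in every library. Mean RPKM was 0.235 for Cfd, 0.146 for Car3, 0.0805 for Lpl, 0.0540 for Cidec, 0.0505 for Lep and 0.0481 for Fabp4. Exon length here joins the exons of all annotated transcripts of a gene. For Fabp4 it was 4489 bases, the whole span of the gene, which lowers its RPKM. Its last place may therefore not hold by transcript length. The library ranges of each neighboring pair among the last 6 overlapped, as did those of Retn and Cfd.

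Car3 (ENSMUSG00000027559) is a plus-strand gene of chromosome 3 (14863512 to 14872523). It had 10 counts in WT 1, 30 in WT 2, 0 in P2KO 1, 0 in P2KO 2, 8 in DKO 1 and 14 in DKO 2. Every library of WT and DKO thus held Car3 reads and neither P2KO library did, while the counts of WT and DKO overlapped. A count of 0 still allows up to 3 counts per library (1-sided 95% limit), or 0.110 CPM (counts relative to library size) in P2KO 1 and 0.130 CPM in P2KO 2, and such floors and the count intervals below cover counting error only.

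Counts were scaled to the library sizes, and the resulting normalized counts of Car3 were 19.5 ± 11.7 in WT and 11.3 ± 5.08 in DKO (SD, n = 2 each). Set against a floor of 3 counts per library, Car3 was at least 6.11-fold lower in P2KO than in WT and at least 3.52-fold higher in DKO than in P2KO. These bounds hold for the observed means of WT and DKO and leave out the counting error of those means. Without WT 2 the first of these bounds is 3.53-fold and without WT 1 it is 8.70-fold, and the second is 2.40-fold without DKO 2 and 4.65-fold without DKO 1. As Car3 was selected on its P2KO counts, these folds are descriptions with no test. The rule that chose Car3 did not use DKO against WT, although earlier results of these data were known. For DKO against WT, edgeR's quasi-likelihood test gave a log2 fold change of -0.84 with a standard error of 0.50 (adjusted p = 0.484, Benjamini-Hochberg). The spread within WT was as wide as this difference. The 95% Poisson intervals of the raw counts were 4.80 to 18.4 in WT 1 and 20.2 to 42.8 in WT 2. The log2 fold change of DKO against WT was -0.019 without WT 2 and -1.32 without WT 1. It was -0.44 without DKO 1 and -1.37 without DKO 2. The adjusted p of this comparison lay between 0.203 and 1.00 over the other settings. In bulk tissue, fewer cells of a type and less RNA per cell cannot be told apart.

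Among the 6 tested members, edgeR called 1 in P2KO against WT at an adjusted p under 0.05, and this was Car3 itself. Over all 20744 tested genes 0.337% were called in that comparison. In DKO against WT 0 of the 6 were called, where 3.22% of all tested genes were, and 1 of the 6, Plin1, had an unadjusted p under 0.05, as did 14.1% of all tested genes. DESeq2 also called 0 in that comparison, of the 3 members for which it gave an adjusted p. In DKO against P2KO 1 of the 6 was called, again Car3, beside 1.21% of all tested genes. Because Car3 was chosen by its P2KO counts, nothing is read from the calls in P2KO against WT and DKO against P2KO. The comparisons share libraries and are not independent of each other.

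**Figure D1:**
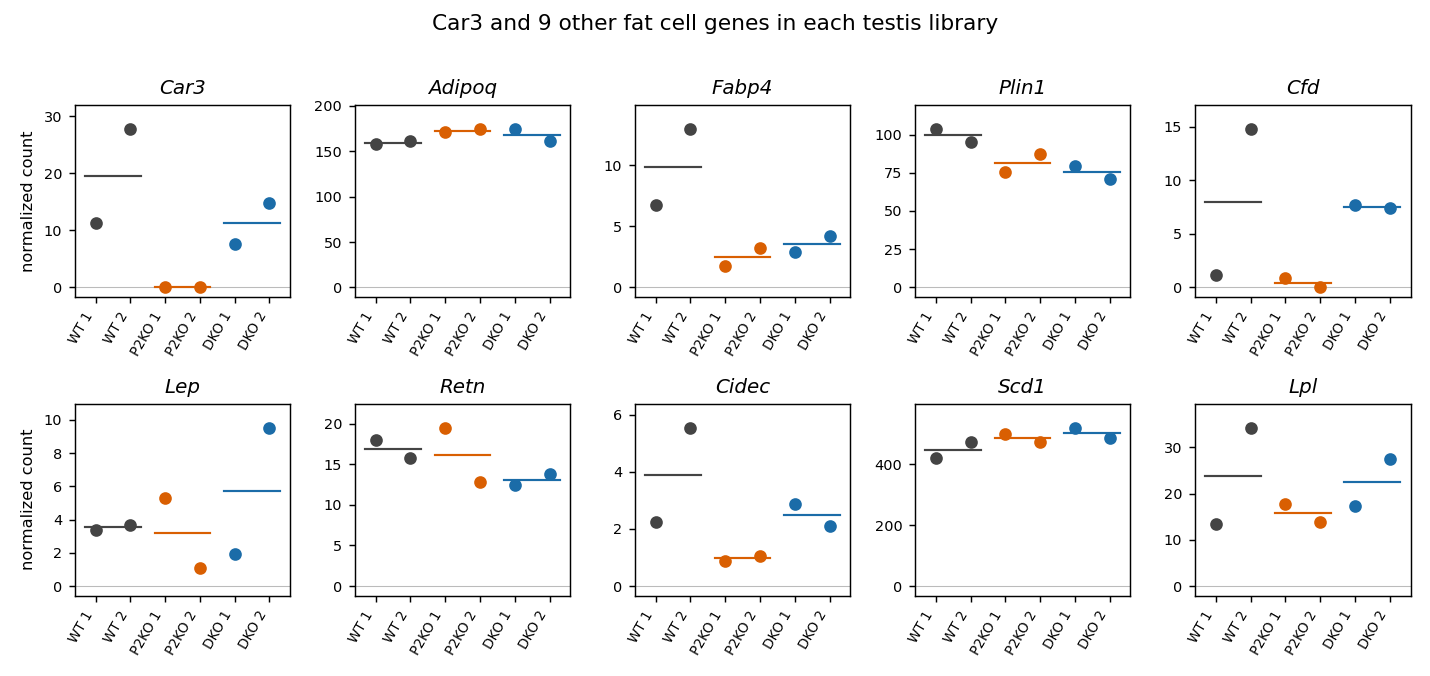
Normalized counts (vertical axes, each from 0) of the 10 genes in each of the 6 testis libraries (horizontal axes), with 1 point per library and a line at the mean of the 2 libraries of WT (grey), P2KO (orange) and DKO (blue). Car3 is at 0 in both P2KO libraries, WT 2 is the highest library for Car3, Fabp4, Cfd, Cidec and Lpl, and Adipoq, Plin1, Retn and Scd1 have counts in every library.

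Of the secreted products of fat cells, Adipoq (ENSMUSG00000022878, plus strand of chromosome 16, 23146536 to 23158028) encodes adiponectin, a hormone that raises insulin sensitivity. Its normalized counts were 158 and 161 in WT, 171 and 175 in P2KO, and 174 and 161 in DKO. The highest library was 1.11 times the lowest. Both WT libraries lay below the other 4, by a small margin in the case of DKO 2. Relative to WT, edgeR put P2KO at a log2 fold of 0.12 (adjusted p = 0.889, standard error 0.144) and DKO at 0.07 (adjusted p = 0.892, standard error 0.145). Adipoq was steady in the P2KO libraries, in which Car3 had no counts. Which cells its reads came from was not tested.

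Retn (ENSMUSG00000012705, plus strand of chromosome 8, 3655770 to 3660110) encodes resistin, another hormone of mouse fat. Its raw counts were 16 and 17 in WT, 22 and 12 in P2KO, and 13 and 13 in DKO. The P2KO libraries held both the highest normalized count and nearly the lowest, and the WT range lay within that of P2KO. In P2KO the log2 fold over WT was -0.04 (edgeR, adjusted p = 0.992, standard error 0.422), and in DKO it was -0.36 (adjusted p = 0.802, standard error 0.442).

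Cfd (ENSMUSG00000061780, plus strand of chromosome 10, 79890853 to 79892655) encodes adipsin, the complement protease secreted by fat cells. It had 1 count in WT 1, 16 in WT 2, 1 in P2KO 1, 0 in P2KO 2, 8 in DKO 1 and 7 in DKO 2. The WT libraries were the furthest apart, and WT 1 was as low as P2KO 1. Both P2KO libraries lay below the other 4 after scaling, with a mean of 0.443 ± 0.627 in P2KO, 7.97 ± 9.68 in WT and 7.54 ± 0.171 in DKO (SD, n = 2 each), but the separation from WT 1 rested on single reads. Cfd did not pass the filter on low counts. When edgeR was run without that filter, its adjusted p was 0.0977 for P2KO against WT and 0.0851 for DKO against P2KO. Without WT 1 it passed the filter and was called lower in P2KO than in WT (adjusted p = 0.00965), and over the other edgeR settings that kept it the adjusted p ran up to 0.824.

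Lep (ENSMUSG00000059201, plus strand of chromosome 6, 29060220 to 29073877) encodes leptin, the hormone that reports fat mass to the brain. Its counts were 3 and 4 in WT, 6 and 1 in P2KO, and 2 and 9 in DKO. The genotypes overlapped, and no library had more than 9 counts. Lep was not tested in the main comparison, and without the filter on low counts its edgeR adjusted p was at least 0.882 in all 3 comparisons.

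Fabp4 (ENSMUSG00000062515, minus strand of chromosome 3, 10204088 to 10208576) encodes the fatty acid carrier of the fat cell cytosol, which is also made in capillary endothelium and macrophages. It had 6 and 14 counts in WT, 2 and 3 in P2KO, and 3 and 4 in DKO. Both WT libraries were above the 4 mutant libraries. The mean normalized count was 9.86 ± 4.38 in WT, 2.48 ± 1.00 in P2KO and 3.56 ± 0.967 in DKO (SD, n = 2 each). Fabp4 did not pass the filter on low counts, and without that filter edgeR's adjusted p was 0.517 for P2KO against WT and 0.528 for DKO against WT.

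Lpl (ENSMUSG00000015568, plus strand of chromosome 8, 68880491 to 68907448) encodes lipoprotein lipase, which frees fatty acids from circulating triglyceride. It had 12 and 37 counts in WT, 20 and 13 in P2KO, and 18 and 26 in DKO. WT 1 was the lowest library and WT 2 the highest, so that the other genotypes lay within the WT range. Relative to WT, edgeR put P2KO at a log2 fold of -0.62 (adjusted p = 0.735, standard error 0.419) and DKO at -0.14 (adjusted p = 0.931, standard error 0.398). Without WT 2 both turned positive, to 0.23 and 0.71.

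Of the lipid droplet genes, Plin1 (ENSMUSG00000030546, minus strand of chromosome 7, 79720218 to 79732903) encodes perilipin 1, which coats the droplet and gates lipolysis. Its normalized counts were 104 and 95.3 in WT, 75.4 and 87.3 in P2KO, and 79.5 and 71.0 in DKO. Both WT libraries were above the 4 mutant libraries, and P2KO and DKO overlapped. In P2KO the log2 fold over WT was -0.29 (edgeR, adjusted p = 0.723, standard error 0.190), and in DKO it was -0.40 (adjusted p = 0.347, standard error 0.193), so neither passed the threshold.

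Cidec (ENSMUSG00000030278, minus strand of chromosome 6, 113424634 to 113435760) encodes a protein that fuses droplets into larger ones. It had 2 and 6 counts in WT, 1 and 1 in P2KO, and 3 and 2 in DKO. P2KO was lowest, at counts too few for a fold change, and without the filter on low counts edgeR's adjusted p was 0.931 for P2KO against WT.

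Scd1 (ENSMUSG00000037071, minus strand of chromosome 19, 44394455 to 44407879) encodes a desaturase that makes monounsaturated fatty acids. Its normalized counts were 420 and 472 in WT, 500 and 475 in P2KO, and 521 and 487 in DKO. Both WT libraries were the lowest of the 6, and the highest library was 1.24 times the lowest. Relative to WT, edgeR put P2KO at a log2 fold of 0.13 (adjusted p = 0.795, standard error 0.0988) and DKO at 0.17 (adjusted p = 0.459, standard error 0.0988). Scd1 is the only member with a near-identical copy, Scd2, to which it aligns over 623 bases at 95.5% identity, so reads of the 2 genes may be split. No member overlaps another annotated gene.

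Apart from Car3, no tested member was called in DKO against P2KO. The log2 fold changes of Adipoq, Plin1, Retn and Scd1 in that comparison were -0.04, -0.10, -0.32 and 0.05, and that of Lpl was 0.48, with edgeR adjusted p from 0.721 to 0.953. None of these 5 had an unadjusted p under 0.05. DESeq2 on all libraries called 0 of Adipoq, Plin1 and Scd1 and gave the other members no adjusted p, and on the 2 genotypes alone it gave none to any member.

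Patterns over the libraries were noted after the values had been seen. WT 2 was the highest library for 5 of the 10 members and for 18.5% of the 25981 genes with at least 10 counts in all. Both P2KO libraries lay below the other 4 for 3 of the 10 members, Car3, Cfd and Cidec, and for 7.41% of those 25981 genes. Car3 was selected for this pattern, and the other 2 rest on 0 or 1 counts in P2KO.

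A list of 10 genes that define fat cells was read next, 6 of which are members. Its summed normalized counts were 379 in WT 1, 403 in WT 2, 364 in P2KO 1, 367 in P2KO 2, 421 in DKO 1 and 359 in DKO 2. Adipoq was the most abundant gene by RPKM and took 40.0% to 47.5% of the sum. Without Adipoq the sums were 221, 242, 192, 193, 247 and 198, so that DKO 2 was the lowest library with Adipoq and the P2KO libraries were the lowest without it. Adrb3, the beta-adrenergic receptor typical of fat cells, had 1 count over all libraries. The others were Lgals12 with 9 to 17 counts per library, Trarg1 with 7 to 17 and Mrap, which is also made in the adrenal gland, with 56 to 120. By edgeR, 0 of its 6 tested genes were called in each comparison. Of these, 0 reached an unadjusted p under 0.05 in P2KO against WT, 1 in DKO against WT and 1 in DKO against P2KO, and DESeq2 called 0 of the 6, 3 and 3 genes to which it gave an adjusted p. The median log2 fold change of the tested genes was -0.10 in P2KO against WT, -0.10 in DKO against WT and -0.06 in DKO against P2KO, where the medians of all tested genes were 0.004, -0.005 and -0.003.

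Brown fat genes were uneven. Ucp1, the uncoupling protein of brown fat, had 0 to 4 counts per library, with reads in 4 of the 6, and Cox8b had 0 in all 6. Cidea had 80 to 120 counts per library, Dio2 73 to 110, Elovl3 19 to 37 and Cox7a1 7 to 15. The 6 genes of this list summed to 217, 239, 227, 227, 238 and 217 normalized counts from WT 1 to DKO 2. Cidea, the most abundant by RPKM, made the largest share in the WT and P2KO libraries. Dio2 made the largest share in DKO 1 (105 against 94.8 for Cidea) and in DKO 2 (99.7 against 84.8). Of its 4 tested genes 0 were called by edgeR in any comparison, and 0 had an unadjusted p under 0.05. DESeq2 called 0 of the 4, 2 and 2 to which it gave an adjusted p.

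Skeletal muscle and liver, where Car3 is also abundant, were read in the same way. The 12 muscle genes summed to 466, 422, 431, 527, 485 and 485 normalized counts from WT 1 to DKO 2, of which Actn3 took 66.7% to 76.3%. Acta1, the actin of muscle fibers, had 0 to 5 counts per library, Tnnt3 0 to 2 and Mb, the myoglobin gene of oxidative fibers, 1 to 7, whereas Myh1 had 34 to 52, Ckm 22 to 42 and Mylpf 16 to 31. Tnnc2, the troponin C of fast fibers, had 21 and 17 counts in WT, 5 and 8 in P2KO, and 8 and 15 in DKO, so that both P2KO libraries were below WT and overlapped with DKO. Its log2 fold in P2KO over WT was -1.60 (edgeR, adjusted p = 0.285, standard error 0.529). Of the 6 tested muscle genes, 4 had a positive log2 fold in that comparison and 2 a negative one, with a median of 0.08. Actn3 had 311 and 287 normalized counts in WT, 329 and 359 in P2KO, and 364 and 324 in DKO. The 8 liver genes summed to 55.2, 72.2, 74.5, 82.0, 66.1 and 63.6 in the same order, with Apoa2 the most abundant by RPKM and Alb, the albumin gene, at 2 to 5 counts per library. In neither list was a gene called by edgeR in any comparison, and 1 gene, Tnnc2 in P2KO against WT, had an unadjusted p under 0.05. DESeq2 called 0 of the 7, 1 and 1 muscle genes and 0 of the 2, 0 and 0 liver genes to which it gave an adjusted p.

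Lists for tissue next to the testis and for blood showed where libraries stood apart. The 10 epididymis genes summed to 2801, 3426, 2864, 2933, 2788 and 3163 normalized counts from WT 1 to DKO 2, of which Cst8, made in germ cells too, took 95.4% to 96.5%. Lcn5 had 0 counts in all libraries, and Crisp1, a major secreted protein of the epididymis, had 1, 9, 2, 0, 0 and 0 counts, with most of its reads in WT 2. Cst8 and Rnase10, the latter at 95 to 138 counts per library, were also highest in WT 2 after scaling. Lcn8, Lcn9 and Cst11 were highest in DKO 2, Rnase9 and Spint4 in DKO 1 and Adam7 in P2KO 2. None of the genes highest outside WT 2 had more than 4 counts in a library. The 4 mesothelium genes summed to 5.63, 19.4, 9.76, 29.8, 24.9 and 24.4 from WT 1 to DKO 2, on a few reads per gene. Upk1b had the highest mean RPKM, although Upk3b was above it in P2KO 2 and DKO 2. The 5 blood genes summed to 796, 1054, 531, 907, 783 and 772, highest in WT 2 and lowest in P2KO 1. Alas2, the heme synthesis gene of red cell precursors, took 40.7% to 74.3% of this sum, and without it the sums were 362, 625, 137, 461, 349 and 253. Hba-a1 had the highest mean RPKM, although Alas2 was above it in P2KO 1 and DKO 2, and Hba-a2 had 0 counts in all libraries. Hbb-bs, the adult beta-globin gene, had 164 and 273 normalized counts in WT, 59.4 and 177 in P2KO, and 143 and 103 in DKO, so that P2KO 2 was above WT 1. It had a log2 fold over WT of -0.94 in P2KO (edgeR, adjusted p = 0.103, standard error 0.248) and -0.84 in DKO (adjusted p = 0.0504, standard error 0.246) and was not called. DESeq2 called 0 of the genes of these 3 lists to which it gave an adjusted p. P2KO 2, with no Car3 reads, had the second highest blood sum and the highest mesothelium sum. The part of these cell types in the counts of Car3 was not tested.

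**Figure D2:**
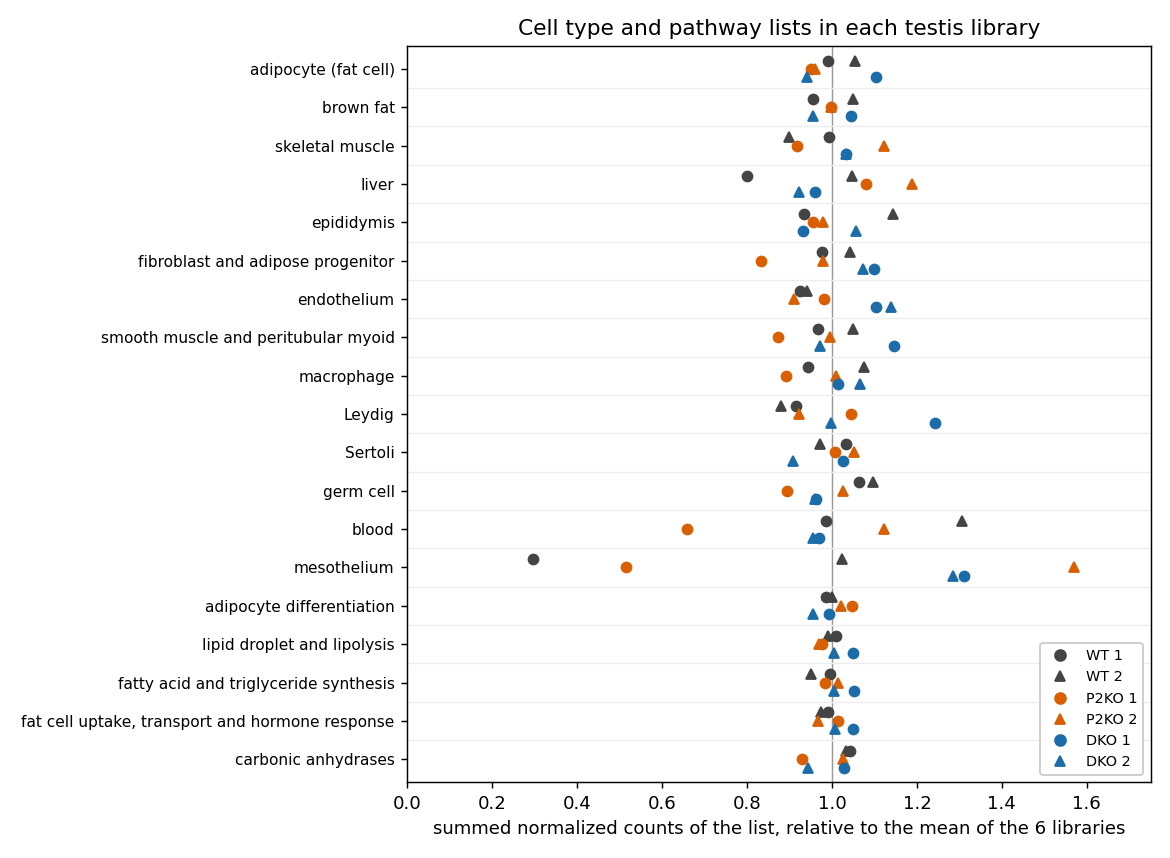
Summed normalized counts of each gene list, divided by the mean of the 6 libraries (horizontal axis, a ratio from 0, with a line at 1), for 14 cell type lists and 5 pathway lists (vertical axis), with 1 symbol per library. Color marks the genotype, circles are replicate 1, triangles are replicate 2, and points are shifted vertically only to separate genotypes. The fat cell list lies between 0.940 and 1.10 in all libraries, while blood is highest in WT 2 at 1.31 and mesothelium spans 0.297 to 1.57.

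The other lists placed the libraries as testis. Germ cell genes summed to 196164 to 240268 normalized counts per library, and Prm2, a protamine of spermatid chromatin, had 5098 to 6084 RPKM. Sertoli genes summed to 18784 to 21740, led by Clu, and Leydig genes to 16067 to 22717, led by Cyp17a1. The remaining lists, for fibroblasts and adipose progenitors, endothelium, smooth muscle and peritubular myoid cells, and macrophages, summed to 1533 to 2022, 383 to 479, 1326 to 1742 and 1525 to 1838, and their most abundant genes by RPKM were Dcn, Cldn5, Acta2 and C1qb. The lowest sum of the 6 libraries was in P2KO 2 for endothelium and in P2KO 1 for the other lists. In each of these 4 lists the other P2KO library was above WT 1, so the P2KO libraries did not stand apart together. No gene of these 4 lists was called by edgeR in any comparison, nor by DESeq2 where it gave an adjusted p. An unadjusted p under 0.05 went to 2 of 8, 0 of 6, 1 of 5 and 2 of 8 of their tested genes in P2KO against WT (8.57% of all tested genes), and to 5 of 8, 2 of 6, 2 of 5 and 1 of 8 in DKO against P2KO (11.8%). In DKO against WT it was 0 of 8, 2 of 6, 0 of 5 and 0 of 8. The median log2 fold change of the fibroblast and adipose progenitor genes was -0.25 in P2KO against WT, 0.13 in DKO against WT and 0.34 in DKO against P2KO, beside 0.004, -0.005 and -0.003 for all tested genes.

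Over the 14 cell type lists, 0 of 73 tested genes were called by edgeR in P2KO against WT, 6 in DKO against WT and 1 in DKO against P2KO, where 0.337%, 3.22% and 1.21% of all tested genes were. An unadjusted p under 0.05 was seen for 16, 13 and 18 of the 73, or 21.9%, 17.8% and 24.7%, beside 8.57%, 14.1% and 11.8% of all tested genes. DESeq2 on all libraries called 0 of 77, 1 of 50 and 1 of 50 with an adjusted p. In DKO against WT the calls were the Leydig genes Cyp17a1, Cyp11a1, Star and Hsd3b6 of steroid synthesis, with log2 fold changes of 0.31, 0.28, 0.51 and 0.41, and the spermatid genes Tnp1 and Prm1, at -0.25 and -0.22. By edgeR with Benjamini-Hochberg adjustment, their adjusted p were 0.0193, 0.0324, 1.59e-04, 3.08e-04, 0.0130 and 0.0302. In P2KO against WT the same 6 genes stood at 0.15, 0.29, 0.24, -0.22, -0.22 and -0.20 (edgeR, adjusted p = 0.626, 0.103, 0.352, 0.285, 0.164 and 0.214), and 1 library weighed on some of them. Tnp1 was at -0.08 without P2KO 1 and -0.37 without P2KO 2, Prm1 at -0.08 and -0.32, Star at -0.01 and 0.45, and Cyp17a1 at 0.04 and 0.24, while Cyp11a1 stayed at 0.29 in both. Cyp11a1 was called in P2KO against WT in 6 of the 13 other settings, Tnp1 and Prm1 in 3 each and Star in 2. The difference between the mutants, DKO against P2KO, was 0.16, -0.01, 0.27, 0.63, -0.04 and -0.02 (adjusted p = 0.415, 0.974, 0.127, 2.93e-07, 0.886 and 0.947), and that of Hsd3b6 was called. Star was called there in 5 of the 13 other settings, with a log2 fold of 0.52 without P2KO 1 and 0.07 without P2KO 2, and Cyp17a1 in 1, without DKO 2.

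Single libraries moved these calls in DKO against WT. Without DKO 1, the library with the most Leydig transcripts, the log2 fold of Cyp17a1 fell to 0.08 and that of Cyp11a1 to 0.07 (edgeR, adjusted p = 0.805 and 0.811). Hsd3b6 at 0.31, Tnp1 at -0.22 and Prm1 at -0.20 changed less but lost their calls (0.0725, 0.228 and 0.269), and Star kept its call at 0.49. Without DKO 2, Tnp1 at -0.30 and Prm1 at -0.24 were not called (0.0636 and 0.139), nor was Prm1 at -0.16 without WT 2 (0.0992). Cyp11a1 was not called either with the replicate number as a block (0.0716) or by edgeR on the 2 genotypes alone (0.0765), and DESeq2 on all libraries called only Hsd3b6. Over all 13 other settings the highest adjusted p in DKO against WT was 1.00 for Cyp17a1, 0.982 for Cyp11a1, 0.186 for Star, 0.0725 for Hsd3b6, 0.393 for Tnp1 and 0.269 for Prm1. Leydig cells hold lipid droplets as stores for steroid synthesis, and no member was called beside them in DKO against WT.

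Car3 was a minor carbonic anhydrase of the testis. Of 15 other genes of the family, Car2, the widespread cytosolic form, was the most abundant with 65.0 to 74.5 RPKM, while Car3 reached at most 0.395 RPKM. The family without Car3 summed to 4773, 4730, 4257, 4704, 4711 and 4329 normalized counts from WT 1 to DKO 2, and Car1 and Car10 had 0 counts in all libraries. By edgeR 0 of its 8 tested genes were called in any comparison, with 1 unadjusted p under 0.05, in P2KO against WT, and DESeq2 called 0 of the 9, 4 and 4 to which it gave an adjusted p.

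Lists of fat cell metabolism hold genes that other cells also use, and the most abundant gene of each had a higher RPKM than any member. In the list of lipid droplet and lipolysis genes, Pnpla2, the first lipase of triglyceride breakdown, had the highest mean at 92.4 to 101 RPKM per library, although Lipe was above it in P2KO 2 and DKO 2, and the 8 genes summed to 36468 to 39526 normalized counts per library. Dgat2, which makes triglyceride, had the highest mean of the 15 genes of fatty acid and triglyceride synthesis, 89.9 RPKM, close to Me1 at 89.1, and was not the highest in P2KO 2, DKO 1 and DKO 2. Aqp7, a glycerol channel, led the 13 of uptake, transport and hormone response with 54.1 to 59.5, and Rxra, a nuclear receptor, led the 7 of adipocyte differentiation with 7.20 to 8.04. The sum of each of these 4 lists stayed between 0.951 and 1.05 times its mean over the 6 libraries. Other genes of these lists were lower, such as Slc2a4, the insulin-responsive glucose transporter, with a mean of 0.210 RPKM.

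Pparg, the master regulator of fat cell differentiation, had a mean of 0.773 RPKM. Its normalized counts were 72.1 and 60.2 in WT, 47.9 and 38.3 in P2KO, and 51.7 and 65.7 in DKO. Both P2KO libraries were below the other 4, as for 7.41% of all genes counted so. Its log2 fold over WT by edgeR was -0.60 in P2KO (adjusted p = 0.458, standard error 0.241, unadjusted p = 0.0183) and -0.17 in DKO (adjusted p = 0.824, standard error 0.232).

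Over these 4 lists and the carbonic anhydrases, edgeR called 0 of 47 tested genes in P2KO against WT, 1 in DKO against WT and 1 in DKO against P2KO, beside 0.337%, 3.22% and 1.21% of all tested genes. An unadjusted p under 0.05 was seen for 6, 9 and 4 of the 47, or 12.8%, 19.1% and 8.51%, beside 8.57%, 14.1% and 11.8% of all tested genes. DESeq2 on all libraries called 0 of 49, 0 of 36 and 1 of 36 with an adjusted p. Acaca, the first enzyme of fatty acid synthesis, was higher in DKO than in WT (log2 fold change 0.29, standard error 0.0778, edgeR adjusted p = 0.0294). Its normalized counts were 1994 and 1584 in WT, 1929 and 2114 in P2KO, and 2179 and 2175 in DKO, and without WT 2, the lowest library, the log2 fold change was 0.13 (adjusted p = 0.662). With a log2 fold change of 0.28 to 0.29 it was also not called without DKO 1 (adjusted p = 0.216), without DKO 2 (0.226), with the replicate number as a block (0.0645), by edgeR on the 2 genotypes alone (0.0528) and by DESeq2 on all libraries (0.0937) or on 2 genotypes (0.212). The call was made in 6 of the 13 other settings, among them the prior count of 2, which leaves the p-value unchanged.

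Cd36, a fatty acid transporter made in fat and capillaries, was higher in DKO than in P2KO. It had 572 and 683 normalized counts in WT, 606 and 506 in P2KO, and 792 and 768 in DKO, so that both DKO libraries were above the other 4. By edgeR, DKO stood at a log2 fold of 0.48 over P2KO (adjusted p = 0.00312, standard error 0.0955) and of 0.31 over WT (adjusted p = 0.0669, standard error 0.0948). The difference between these is the comparison of P2KO with WT, at -0.18 (edgeR, adjusted p = 0.641, standard error 0.0974). The call was lost without P2KO 2, at 0.37 (adjusted p = 0.151), and without DKO 1, at 0.46 (adjusted p = 0.105).

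The tested genes whose pattern was most like that of Car3 over the 6 libraries, by Pearson's r of log2 CPM, were Gldc (0.998), Extl2 (0.994), Gnrh1 (0.993), Aurkb (0.993) and Alkbh2 (0.993), of 20743 ranked. Gldc encodes glycine decarboxylase, Gnrh1 the gonadotropin-releasing hormone and Aurkb a mitotic kinase. Fabp4, Cfd, Lep and Cidec were not tested and so were not ranked, and the pattern includes the P2KO counts of 0 on which Car3 was selected. Gnrh1, with the fewest reads of these, had 10 and 21 counts in WT, 5 and 4 in P2KO, and 10 and 14 in DKO. Pearson's r takes no account of the size of a change. Gldc had 137 to 252 counts per library, Extl2 551 to 796, Aurkb 264 to 417 and Alkbh2 17 to 34, all with reads in P2KO. Among the tested members r with Car3 was 0.66 for Lpl, 0.29 for Plin1, -0.09 for Retn, -0.26 for Scd1 and -0.74 for Adipoq. These r describe 6 libraries of 3 genotypes, ranked from all tested genes, and carry no test.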

How the data were processed

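Total RNA from testis was made into strand-specific poly(A) libraries. Reads were trimmed (Trim Galore, cutadapt) and mapped with STAR on GRCm38 by the authors, who deposited 1 table of raw counts per gene, with no normalization. Tool versions and the strand column taken are not given in the sources used here. All 55536 gene identifiers were matched to GENCODE mouse release 21 for symbols, positions and exon lengths.

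The main comparison used edgeR 4.0.16 under R 4.3.3. Genes were kept by filterByExpr (minimum count 10, 20744 genes), scaled by TMM and fitted by genotype in 1 quasi-likelihood model over the 6 libraries, with 3 residual degrees of freedom and a common biological coefficient of variation of 0.0508. The p-values were adjusted over all tested genes by the Benjamini-Hochberg method, and an adjusted p under 0.05 was a call. Normalized counts are counts rescaled to the geometric mean of the TMM-scaled library sizes. RPKM used the same scaled size and merged exon length. A standard error is the log2 fold change divided by the square root of F. An exact permutation test of 2 against 2 libraries cannot pass 0.05. The fit was also run on simulated data, and no result here is read from that run. Copies of members were sought with BLAST 2.17.0 (at least 95% identity over 150 bases and 50% of the shorter transcript).

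Alternatives were RLE scaling, no filter, DESeq2 1.42.0 on all or on 2 genotypes, edgeR on 2 genotypes, a prior count of 2, the replicate number as a block, and each library left out. The prior count changes the fold change but not the p-value. Leaving out a library of the third genotype keeps all libraries of a comparison. Such settings are weak checks in the tallies of settings. Genes named are the members, list genes that were called, the gene of each list with the highest mean RPKM, and the 5 tested genes most correlated with Car3 by log2 CPM with a prior count of 2. Others, such as defining markers at or near 0, were named after their values were seen. The members and lists were chosen with earlier results of these data known.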

Additional observations from a re-analysis of the deposited data

How the results depend on the processing

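With no filter on low counts, 80 genes were called higher and 60 lower in P2KO against WT (41 and 29 in the main comparison). DESeq2 on all libraries called 22 and 19, and on the 2 genotypes compared 22 and 18, while edgeR on the 2 genotypes called 26 higher. In DKO against WT (428 and 240), DESeq2 called 264 and 140 on all libraries, and 191 and 105 on the 2 genotypes. In DKO against P2KO (126 and 124), DESeq2 called 90 higher and 72 lower on all libraries and 162 higher and 82 lower on the 2 genotypes, and edgeR on the 2 genotypes called 321 higher and 258 lower. These 3 fits called 0 fat cell genes there, against 1, Car3, in the main comparison, but Car3 was tested in none of them. They gave an adjusted p to 3, 0 and 5 members, and 1279, 1292 and 2779 genes had an unadjusted p under 0.05. The causes were not tested.

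With each library left out in turn, where a lone library is assumed to vary like the other groups, P2KO against WT gave 28 to 221 genes called higher, 25 to 90 lower and 1 to 2 fat cell genes, the second being Cfd without WT 1. DKO against WT gave 129 to 762 and 110 to 303, and no fat cell gene. DKO against P2KO gave 51 to 348 and 54 to 274, and 0 to 1 fat cell genes, with 0 without P2KO 1, without P2KO 2 and without DKO 2. In all, 208 log2 fold changes of tested members under the alternatives were read, leaving out the contrasts that chose Car3. None was called where an adjusted p was given, which DESeq2 did not do for all of them, and 199 kept their direction. The other 9 changed sign. For P2KO against WT these were Retn without WT 1 (0.05) and without P2KO 2 (0.21), where the lowest value was -0.39 without P2KO 1, and Lpl without WT 2 (0.23), where the lowest was -1.10 without WT 1. For DKO against WT they were Lpl without WT 2 (0.71) and without DKO 1 (0.16), against a lowest of -0.63 without WT 1. For DKO against P2KO they were Adipoq without DKO 2 (0.013), Plin1 without P2KO 2 (0.0080), Retn without P2KO 1 (0.035) and Scd1 without DKO 1 (-0.0076). The values at the other end there were -0.10 for Adipoq without DKO 1, -0.21 for Plin1 without P2KO 1, -0.56 for Retn without P2KO 2 and 0.10 for Scd1 without DKO 2.

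With the replicate block, 24 genes were called higher and 21 lower in P2KO against WT, 348 and 207 in DKO against WT, and 88 and 101 in DKO against P2KO, and the counts of fat cell genes called were 1, 0 and 1. Deviations of same-numbered libraries correlated at -0.057 for WT and P2KO, 0.057 for WT and DKO and -0.050 for P2KO and DKO, so no strong shift shared by number was seen. With 2 libraries per genotype, these values cannot tell whether same-numbered libraries shared a litter, cage or day.

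Each genotype has 2 libraries, 4 of the 10 members were too low to be tested, and a count of 0 allows up to 3.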
